A study of Mus musculus with 8 samples.

Results

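The ligands and receptors of the TNF superfamily were followed in the aortas of 5 caIKK2EC and 3 Control mice. The 37 members were chosen by gene symbol, 15 of them ligands and 22 receptors, out of 24411 gene rows. Of these, 28 (10 ligands and 18 receptors) had a mean raw count of 20 or more over the 8 libraries and are reported with values, and all 28 were among the 14679 genes tested. The rule of name and mean count holds no difference between the groups, but the members were chosen with earlier results of these data known. All 8 mice were ApoE-/-, so that they develop atherosclerotic plaques, and carried caIKK2(+/+), a permanently active IKK2 with EGFP placed behind a floxed stop signal. The caIKK2EC mice also carried BMXCreERT2(+/-), a tamoxifen-dependent Cre recombinase driven by regulatory sequence of Bmx, a gene of arterial endothelium. Littermates without Cre served as Control mice. Both groups received tamoxifen (1 mg per 20 g of body weight) and a Western-type diet for 12 weeks. Animals were aged 18 or 19 weeks. Control 3 was the only male and also the only Control of 19 weeks. The age of 19 weeks was shared by caIKK2EC 2, 4 and 5. The series describes switching on the transgene in early or in late atherosclerosis, and the sources used here do not say which stage these 8 mice stand for.

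TNF superfamily ligands are mostly membrane-anchored trimers, some of which are released by proteases, and they cluster receptors with cysteine-rich extracellular domains. Receptors with a death domain can start apoptosis or inflammatory signalling, others recruit TRAF adaptor proteins and activate NF-κB, and decoy receptors bind a ligand without passing on a signal. IKK2 is the kinase that releases canonical NF-κB downstream of several of these receptors. In the atherosclerotic vessel wall, endothelial cells, smooth muscle cells, macrophages and lymphocytes all carry members of the family.

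The libraries held 23461655 to 30808502 counts each. The tissue carried its defining markers: the 8 smooth muscle markers and the 10 endothelial markers were all expressed in both groups. Ikbkb, the gene of IKK2, was at 99.3, 103, 98.7, 99.9 and 91.6 CPM (counts relative to library size after TMM scaling) in caIKK2EC 1 to 5, against 86.8, 87.0 and 65.4 CPM in Control 1 to 3, and the sources used here do not say whether transgene reads were counted there. According to the deposited column names, lane 7 held the 3 Controls and caIKK2EC 1, and lane 8 held caIKK2EC 2 to 5, so caIKK2EC 1 against the Controls is the sole comparison possible within a lane. Control 3 stood apart from the other libraries: it had the lowest level of 14 of the 28 members and of 28.2% of all tested genes. It also had the highest summed level of the smooth muscle markers (36541 CPM) and the lowest of the macrophage markers (1953 CPM). Striated muscle marker RNA was summed to 619 CPM in caIKK2EC 1 and 1167 CPM in Control 1, against 12.7 to 31.1 CPM in the other libraries. Counts of members, the members called or without overlap and the marker lists are therefore also given without Control 3. Counts of members are given without caIKK2EC 1 and Control 1 together as well.

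Upstream sequences were taken from RefSeq (GRCm38.p6) for the 29 members found in its promoter table, in 32 windows of 250 bases before an annotated start. The windows of Tnfrsf1b, Tnfrsf21 and Tnfsf14 are shown because the table holds these genes among those that DESeq2 called in the comparison described below (Tnfsf9, also called, is named only). They are printed 5′ to 3′ on the strand of the gene, at chr4:145246871-145247120 (minus strand) for Tnfrsf1b, chr17:43016305-43016554 (plus strand) for Tnfrsf21 and chr17:57194182-57194431 (minus strand) for Tnfsf14. Capitals mark the AP-1 motif TGANTCA.
Tnfrsf1b: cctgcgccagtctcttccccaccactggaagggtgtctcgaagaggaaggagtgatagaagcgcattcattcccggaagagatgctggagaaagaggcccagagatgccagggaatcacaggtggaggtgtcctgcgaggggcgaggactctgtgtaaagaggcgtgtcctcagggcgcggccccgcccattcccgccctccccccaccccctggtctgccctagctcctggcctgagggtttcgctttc
Tnfrsf21: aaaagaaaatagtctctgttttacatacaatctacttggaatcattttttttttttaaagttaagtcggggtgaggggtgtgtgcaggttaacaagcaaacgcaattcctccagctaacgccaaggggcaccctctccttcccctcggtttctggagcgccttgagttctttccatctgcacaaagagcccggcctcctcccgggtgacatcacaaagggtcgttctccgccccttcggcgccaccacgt
Tnfsf14: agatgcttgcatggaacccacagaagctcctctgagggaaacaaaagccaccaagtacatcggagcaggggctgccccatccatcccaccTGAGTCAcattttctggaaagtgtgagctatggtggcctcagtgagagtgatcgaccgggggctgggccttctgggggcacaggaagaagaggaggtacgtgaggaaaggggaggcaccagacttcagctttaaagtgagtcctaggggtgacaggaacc
The κB consensus motif, searched on both strands, occurred in 2 of the 32 member windows, at Tnfrsf8 and Tnfrsf9, and in 3.9% of 32851 promoter windows of the genome. The motif TGANTCA was in 5 member windows and in 6.75% of all windows, and TATAAA, on both strands, in 6 member windows and in 12.4% of all windows. None of the 3 windows above held the κB consensus, which says only that these letters are absent there. The match at Tnfrsf9 is printed with its flanks at chr4:150927947-150927976 (plus strand). These bases lie inside an annotated exon of Tnfrsf9, and the first letter of the match is 43 bases before another start of the gene. It is shown in capitals, and these letters hold 2 overlapping matches.
Tnfrsf9: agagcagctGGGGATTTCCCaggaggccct

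Levels per length differed widely within the family. Expressed as CPM per kb of exon (GENCODE M21 on GRCm38) and averaged over the 8 libraries, the order was led by the receptors Tnfrsf1a (91.2), Tnfrsf12a (77.0) and Tnfrsf1b (54.4), followed by the ligand Tnfsf12 (40.5) and the receptors Tnfrsf11b (30.8) and Fas (30.0). Below Fas came the only gap in the order where the libraries of 2 neighbouring genes did not overlap, and Tnfrsf21 followed at 11.9 and Tnfrsf11a at 6.96 CPM per kb. All other neighbours in the order overlapped between libraries, and their order within single libraries was not compared. Tnfsf12 was the sole ligand in this upper range. It shares 731 of its 1515 exon bases on the same strand with the read-through gene Tnfsfm13. The sources used here do not say how reads there were counted, so the level of Tnfsf12 may be understated. The next ligands were Tnfsf10 at 3.60 and Tnfsf9 at 2.44 CPM per kb, and the lowest reported member was the receptor Tnfrsf19 at 0.296 CPM per kb. Among ligand and receptor pairs with both partners reported, the level per length of the receptor was 64.5 times that of the ligand for Tnf and Tnfrsf1a, 38.5 times for Tnf and Tnfrsf1b, and 65.6 times for Tnfsf11 and its decoy Tnfrsf11b. It was 14.8 times for Tnfsf11 and its signalling receptor Tnfrsf11a, and 8.56 times for Tnfsf10 and the decoy Tnfrsf11b. For Tnfsf14 and Tnfrsf14 it was 4.12 times, for Tnfsf15 and Tnfrsf25 4.09 times, and for Eda and Eda2r 1.25 times. For Tnfsf12 and its receptor Tnfrsf12a it was 1.90 times, for Tnfsf9 and Tnfrsf9 1.12 times, and for Tnfsf10 and Tnfrsf10b 0.63 times.

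**Figure D1:**
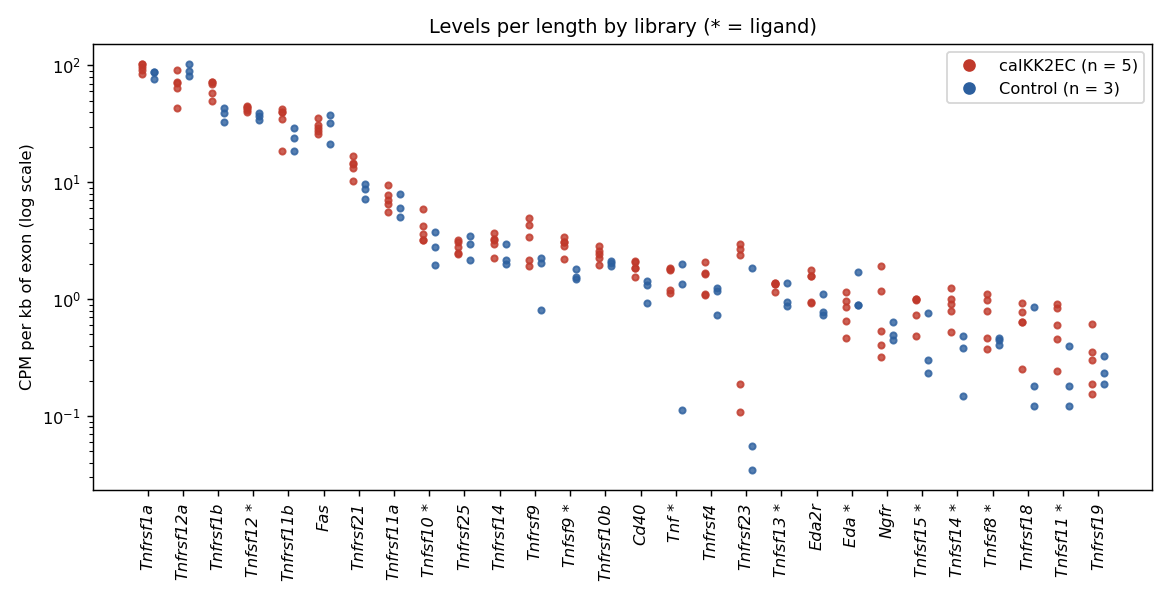
Level of each of the 28 members in CPM per kb of exon (log axis), with 1 point per library, caIKK2EC (red, n = 5) left of Control (blue, n = 3). The 6 leading genes, from Tnfrsf1a to Fas, average 30.0 to 91.2 CPM per kb, and Tnfrsf19 is lowest at 0.296 CPM per kb.

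The remaining 9 members had a mean raw count under 20 and are given as counts only. They were 5 ligands, namely Tnfsf4 (mean 6.5 counts), Tnfsf18 (12.4), Fasl (6.75), Cd40lg (2.0) and Cd70 (0 in all 8 libraries), and 4 receptors, namely Tnfrsf8 (4.0), Cd27 (18.5), Tnfrsf13c (5.62) and Tnfrsf17 (8.75). The ligand partners of Fas, Cd40, Tnfrsf4 and Tnfrsf18 were thus among the genes with few counts. Tnfrsf17, the BCMA receptor of plasma cells, had 2 to 6 counts in the caIKK2EC libraries, against 40 counts in Control 1 and 5 counts each in Control 2 and 3. Just inside the threshold lay Tnfrsf18 with a mean of 22.2 counts, and just outside it Cd27.

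Setting caIKK2EC against Control aortas addresses how TNF superfamily transcripts differ when IKK2 is active in arterial endothelium. Most members were at somewhat higher levels in caIKK2EC aortas, and none passed the test across all genes. Of the 28 members, 24 had a positive and 4 a negative log2 fold change, with a median of 0.54 (0.63 for the ligands and 0.54 for the receptors), beside a median of -0.02 over all 14679 tested genes. The 6 members whose libraries did not overlap between the groups were all higher in caIKK2EC aortas: the ligands Tnfsf14, Tnfsf9 and Tnfsf12 and the receptors Tnfrsf1b, Tnfrsf21 and Cd40. Over all tested genes, 7.01% were higher and 3.22% lower without overlap.

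With edgeR's quasi-likelihood test and Benjamini-Hochberg adjustment over all genes, 0 members were called, as were 0.0% of all genes in either direction (lowest adjusted p of any gene 0.107). At an unadjusted edgeR p under 0.05, 9 members were higher and 0 lower, beside 9.66% and 7.47% of all genes. DESeq2 called 4 members higher (Tnfrsf1b, Tnfrsf21, Tnfsf9 and Tnfsf14) and 0 lower, beside 4.55% and 1.51% of the 14340 genes to which it gave an adjusted p. Without Control 3 the median log2 fold change of the members was 0.43 (all genes -0.01), 5 had an unadjusted edgeR p under 0.05, all higher (background 7.67% higher and 3.72% lower), and DESeq2 called 2, Tnfsf9 and Tnfrsf1b (background 2.49% higher and 0.231% lower). The same 6 members stayed without overlap when Control 3 was left out, beside a background of 9.66% higher and 6.17% lower. Within lane 7, the median log2 difference of caIKK2EC 1 from the Control mean was 0.22 over the members and 0.01 over all tested genes.

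Single libraries moved these counts. Without Control 1, 12 members were higher without overlap (12.1% of all genes), without caIKK2EC 2 there were 9 higher and 1 lower (11.6% and 9.27%), and without caIKK2EC 1 and Control 1 together 14 were higher (13.9%). The 6 named above were in each of these sets and in those that left out any other library. Without caIKK2EC 2, edgeR called 2 members, Tnfrsf1b and Tnfrsf21, both higher with an adjusted p of 0.0356, beside 1.57% of all genes higher and 0.883% lower in that fit. DESeq2 called 2 to 6 members, all higher, when a library was left out, and 7 without caIKK2EC 1 and Control 1 together, beside 4.55% of all genes higher there. It called 6 members without Control 1 (5.04% of all genes higher), 5 without caIKK2EC 2 (6.81%), 4 without caIKK2EC 1 (3.98%), and 3 without Control 2 (4.05%) or caIKK2EC 4 (2.23%). Without caIKK2EC 3 (2.47%) or caIKK2EC 5 (2.28%) it called 2. In these runs 0.337% to 4.65% of all genes were lower. Tnfrsf1b was in every DESeq2 set, and Tnfrsf21 in every set but that without Control 3. Tnfsf9 and Tnfsf14 were in fewer. Tnfsf9 was lost without caIKK2EC 3, 4 or 5 or Control 1 or 2, and Tnfsf14 without caIKK2EC 1, 2, 3 or 5 or Control 1 or 3.

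**Figure D2:**
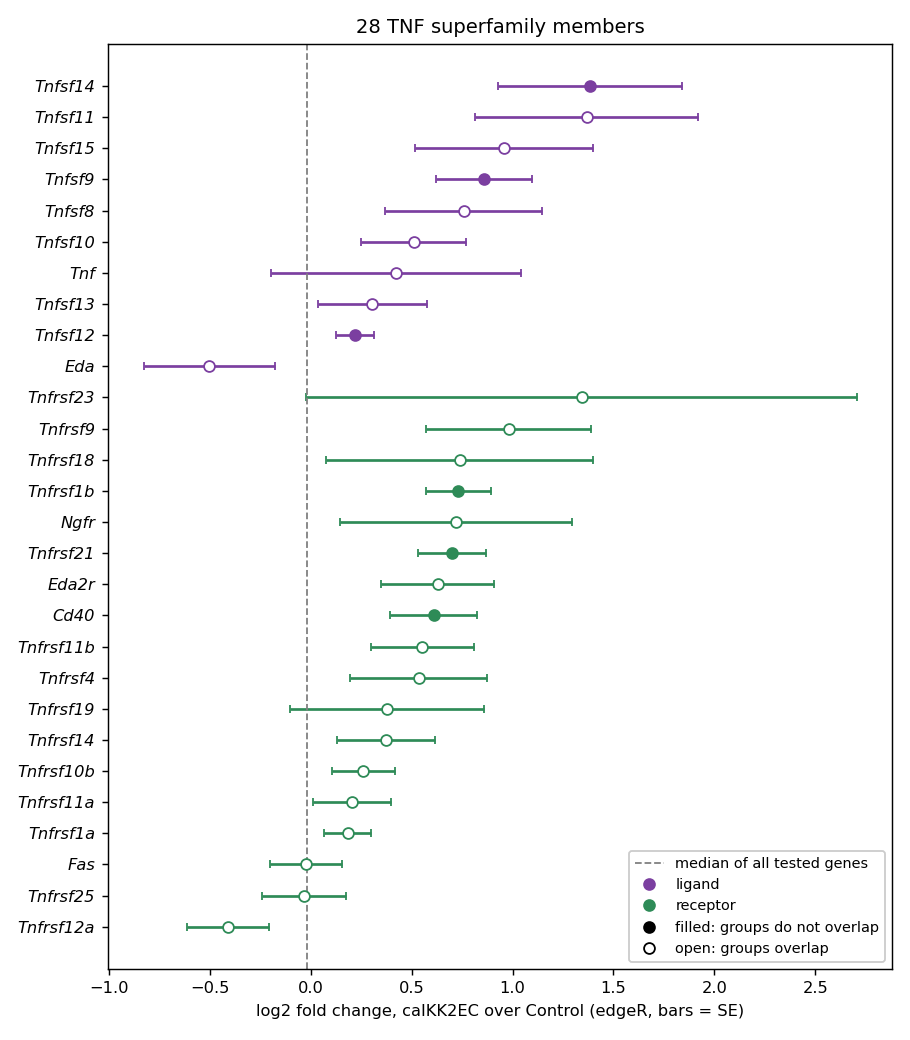
The log2 fold change of caIKK2EC over Control for the 28 members (edgeR, bars are the standard error), ligands in purple above receptors in green, with filled points where the groups did not overlap. The members centre on 0.54, to the right of the dashed line at -0.02, the median of all tested genes, and the 6 filled points are all positive.

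Among the ligands, Tnfsf9, Tnfsf14 and Tnfsf12 were higher in all 5 caIKK2EC libraries than in any Control. Tnfsf9 (CD137 ligand, a costimulatory ligand of T cells; chromosome 17, 57105325 to 57107757, plus strand, GRCm38) was at 2.87, 3.67, 3.97, 4.02 and 4.37 CPM in caIKK2EC 1 to 5, against 1.93, 2.00 and 2.34 CPM in Control 1 to 3. The lowest caIKK2EC library was caIKK2EC 1, the only one in lane 7 with the Controls. On the log2 scale the fold change was 0.86 (SE 0.24, edgeR adjusted p = 0.143, DESeq2 adjusted p = 0.0154). It was 0.95 without Control 3, 0.39 within lane 7 and 0.46 with lane as a term. An exon of Gm11110 on the opposite strand shares 192 of the 1290 exon bases of Tnfsf9. The sources used here do not say whether counting used the strand, so reads within the shared bases cannot be told apart. Gm11110 had 11 to 22 counts in caIKK2EC and 10 to 32 counts in Control libraries.

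Tnfsf14 (LIGHT, a ligand of Tnfrsf14 and of the lymphotoxin beta receptor; chromosome 17, 57189492 to 57194177, minus strand) was at 2.29, 1.69, 1.45, 0.96 and 1.84 CPM in caIKK2EC 1 to 5, against 0.70, 0.89 and 0.28 CPM in Control 1 to 3. The groups were separated by the narrow step between caIKK2EC 4, with 27 counts, and Control 2, with 24 counts. Fitted over all libraries, the log2 fold change was 1.38 (SE 0.46, edgeR adjusted p = 0.181, DESeq2 adjusted p = 0.0484), 1.05 without Control 3 and 1.36 within lane 7.

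Tnfsf12 (TWEAK, the ligand of Tnfrsf12a; chromosome 11, 69686250 to 69695849, minus strand) was at 60.9, 68.3, 64.9, 63.4 and 66.4 CPM in caIKK2EC 1 to 5, against 59.4, 55.6 and 51.9 CPM in Control 1 to 3. The step between caIKK2EC 1 and Control 1, the nearest libraries, was small beside the levels. Its log2 fold change was 0.22 (SE 0.09, edgeR adjusted p = 0.273, DESeq2 adjusted p = 0.173), 0.17 without Control 3 and 0.13 within lane 7. Tnfsf12 shares 731 exon bases on the same strand with the read-through gene Tnfsfm13, whose row held 0 counts in all 8 libraries.

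Tnfsf10 (TRAIL, a death ligand; chromosome 3, 27317028 to 27342427, plus strand) was at 16.9, 17.0, 31.3, 19.1 and 22.4 CPM in caIKK2EC 1 to 5, against 14.7, 20.0 and 10.3 CPM in Control 1 to 3. Control 2 lay among the caIKK2EC libraries, and caIKK2EC 3 was highest. The log2 fold change of 0.51 (SE 0.26) had an edgeR adjusted p of 0.347. It was 0.30 without Control 3, 0.22 within lane 7 and 0.17 with lane as a term. Tnfsf11 (RANKL, the osteoclast differentiation ligand) ranged over 0.55 to 2.02 CPM in caIKK2EC and 0.28 to 0.89 CPM in Control libraries, with a log2 fold change of 1.37 (edgeR adjusted p = 0.250, unadjusted p = 0.033, SE 0.55). Its groups overlapped through caIKK2EC 2, with 13 counts. The value was 1.08 without Control 3, 1.35 within lane 7, 1.92 with lane as a term and 2.00 without Control 1. DESeq2 called Tnfsf11 without Control 1 (adjusted p = 0.0384) and without caIKK2EC 2 (adjusted p = 0.0281).

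Tnf itself, the founding cytokine of the family (chromosome 17, 35199381 to 35202007, minus strand), was at 1.86, 2.99, 1.96, 3.06 and 2.94 CPM in caIKK2EC 1 to 5, against 3.30, 2.22 and 0.18 CPM in Control 1 to 3. The highest and the lowest library were both Controls, and Control 3 held 4 counts. Its log2 fold change was 0.42 (SE 0.62, edgeR adjusted p = 0.776) and turned to -0.10 without Control 3, and it was 1.08 without Control 1. Tnf was set out in full after this turn of sign was seen.

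Of the other ligands, Tnfsf15 (TL1A, the ligand of Tnfrsf25) ranged over 1.63 to 3.38 CPM in caIKK2EC and 0.78 to 2.56 CPM in Control libraries, with a log2 fold change of 0.96 (edgeR adjusted p = 0.302). It was 0.76 without Control 3, 0.17 with lane as a term and 1.68 without Control 1, where DESeq2 called it (adjusted p = 0.0049), as it did without caIKK2EC 1 and Control 1 together (adjusted p = 0.0007). Tnfsf8 (CD30 ligand) was at 1.43 to 4.18 CPM in caIKK2EC and 1.56 to 1.78 CPM in Control libraries. Its log2 fold change was 0.76, but 0.07 within lane 7 and 0.09 with lane as a term. Tnfsf13 (APRIL, a B cell and plasma cell factor) was at 1.88 to 2.25 CPM in caIKK2EC and 1.42 to 2.26 CPM in Control libraries (log2 fold change 0.31). Tnfsf13 shares 983 exon bases with Tnfsfm13 on the same strand and 221 with Tnfsf13os on the opposite strand. Eda (ectodysplasin A, known from hair and tooth development) was the only ligand with a negative value (-0.50, and -0.13 without Control 3), at 3.16 to 7.88 CPM in caIKK2EC and 6.10 to 11.6 CPM in Control libraries. The edgeR adjusted p of these 4 ligands lay between 0.302 and 0.606.

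**Figure D3:**
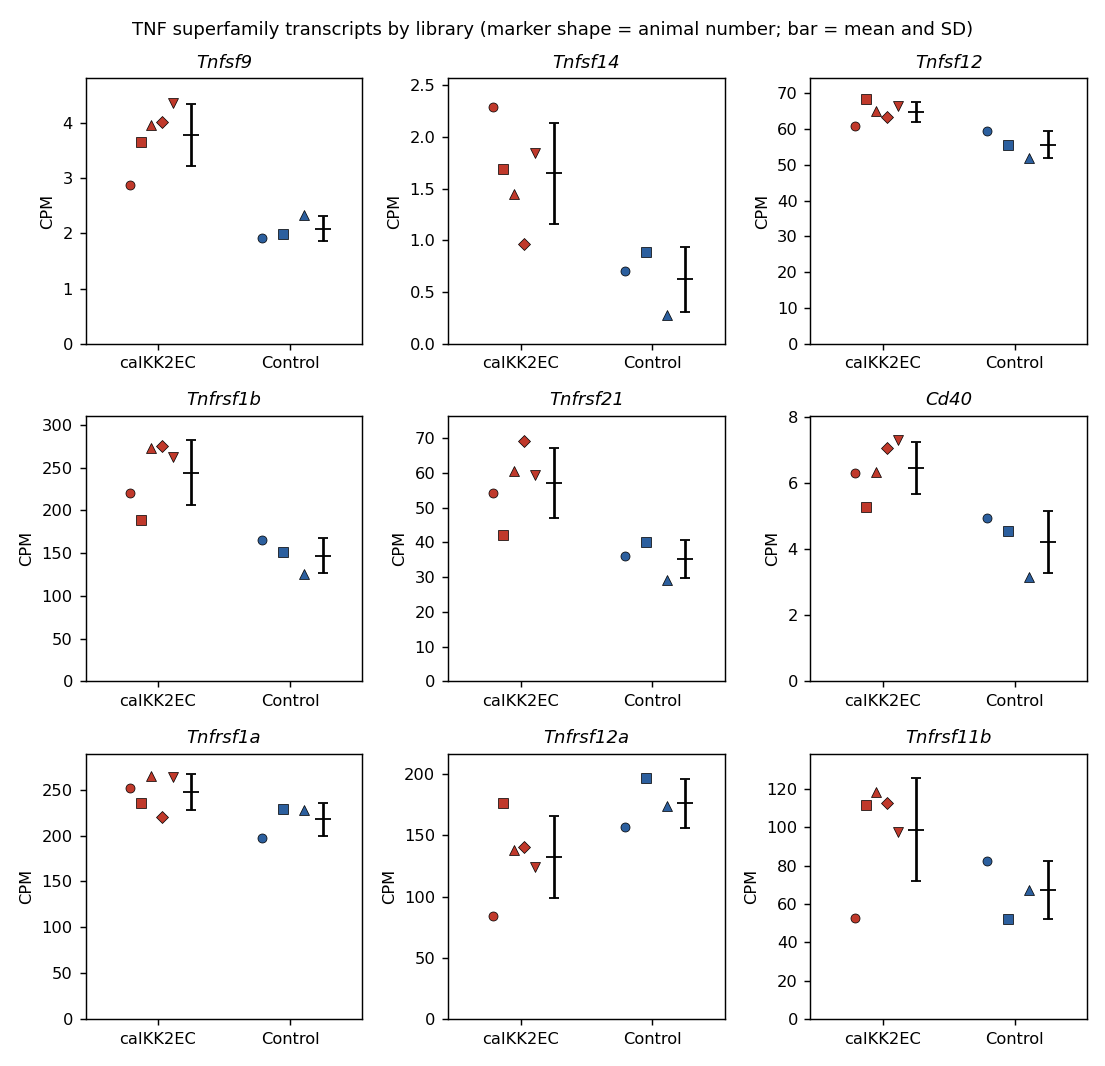
CPM of 9 members in each library, caIKK2EC (red, n = 5) left of Control (blue, n = 3), with the mean and SD of each group beside the points and 1 marker shape per animal number. The groups do not overlap in the upper 6 panels, and they overlap for Tnfrsf1a, Tnfrsf12a and Tnfrsf11b in the bottom row.

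Among the receptors, the clearest separation was that of Tnfrsf1b. Tnfrsf1b (TNFR2, a TNF receptor without a death domain that acts through TRAF2; chromosome 4, 145213463 to 145246870, minus strand) was at 221, 189, 273, 275 and 262 CPM in caIKK2EC 1 to 5, against 166, 151 and 125 CPM in Control 1 to 3. All caIKK2EC libraries lay above all Controls, with caIKK2EC 2 nearest to Control 1. The means were 244 ± 37.7 CPM (SD, n = 5) in caIKK2EC and 147 ± 20.5 CPM (SD, n = 3) in Control aortas. From edgeR came a log2 fold change of 0.73 (adjusted p = 0.109, SE 0.16; DESeq2 adjusted p = 0.0015), 0.63 without Control 3 and 0.59 within lane 7. It stayed between 0.63 and 0.84 when each library was left out in turn.

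Tnfrsf1a (TNFR1, the TNF receptor with a death domain; chromosome 6, 125349362 to 125362484, plus strand) was at 252, 236, 265, 220 and 264 CPM in caIKK2EC 1 to 5, against 197, 229 and 228 CPM in Control 1 to 3. Only caIKK2EC 4 lay within the Control range. Here the log2 fold change was 0.18 (SE 0.12, edgeR adjusted p = 0.458), and the difference between its value and that of Tnfrsf1b was not tested.

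Tnfrsf21 (death receptor 6; chromosome 17, 43016555 to 43089189, plus strand) was at 54.2, 42.2, 60.6, 69.3 and 59.4 CPM in caIKK2EC 1 to 5, against 36.2, 40.1 and 29.3 CPM in Control 1 to 3. The groups did not overlap, and caIKK2EC 2 was close to Control 2. Its log2 fold change was 0.70 (SE 0.17, edgeR adjusted p = 0.116, DESeq2 adjusted p = 0.0088), 0.58 without Control 3 and 0.63 within lane 7. The other death domain receptors overlapped between the groups. Fas (chromosome 19, 34290666 to 34327772, plus strand) was at 57.1, 73.9, 59.7, 53.1 and 64.0 CPM in caIKK2EC 1 to 5, against 66.5, 77.2 and 44.1 CPM in Control 1 to 3. Its highest and lowest libraries were Controls, and the log2 fold change was -0.03 (SE 0.18, edgeR adjusted p = 0.963) and -0.22 without Control 3. Tnfrsf10b, the mouse TRAIL death receptor, was at 10.6 to 15.5 CPM in caIKK2EC and 10.4 to 11.5 CPM in Control libraries (log2 fold change 0.26). Tnfrsf25 (DR3) was at 5.51 to 7.33 CPM in caIKK2EC and 4.91 to 7.89 CPM in Control libraries (-0.03). Ngfr, the low-affinity neurotrophin receptor, was at 1.10 to 6.58 CPM in caIKK2EC and 1.55 to 2.22 CPM in Control libraries (0.72), with the highest value in caIKK2EC 4. For Ngfr the log2 value was 0.01 within lane 7 and 0.0004 with lane as a term.

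Of the costimulatory receptors, only Cd40 separated the groups. Cd40 (chromosome 2, 165055627 to 165072948, plus strand), the receptor of CD40 ligand on antigen-presenting cells and activated endothelium, was at 6.29, 5.27, 6.32, 7.05 and 7.28 CPM in caIKK2EC 1 to 5, against 4.93, 4.55 and 3.17 CPM in Control 1 to 3. All caIKK2EC libraries were above the Controls, by a narrow step between caIKK2EC 2 and Control 1. For Cd40 the log2 fold change was 0.61 (SE 0.22, edgeR adjusted p = 0.203, DESeq2 adjusted p = 0.0678), 0.44 without Control 3 and 0.55 within lane 7.

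Tnfrsf9 (CD137, the receptor of Tnfsf9) was at 5.24, 11.7, 5.94, 13.5 and 9.22 CPM in caIKK2EC 1 to 5, against 5.56, 2.18 and 6.15 CPM in Control 1 to 3. caIKK2EC 2, 4 and 5 were above every Control, and caIKK2EC 1 and 3 lay within the Control range. For Tnfrsf9 the log2 fold change was 0.98 (SE 0.41, edgeR adjusted p = 0.267, unadjusted p = 0.038). It was 1.24 without Control 3, 0.27 within lane 7 and 0.18 with lane as a term. Tnfrsf4 (OX40) was at 1.49 to 2.85 CPM in caIKK2EC and 1.01 to 1.70 CPM in Control libraries (log2 fold change 0.53). Tnfrsf18 (GITR), at 0.38 to 1.42 CPM in caIKK2EC and 0.18 to 1.30 CPM in Control libraries, had a log2 fold change of 0.74. This was 0.42 without Control 3, 0.33 without Control 2 and 2.11 without Control 1, where DESeq2 called it (adjusted p = 0.0435). Gm16008 on the opposite strand shares 414 exon bases with Tnfrsf18.

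For the abundant receptors Tnfrsf12a and Tnfrsf11b, caIKK2EC 1 of lane 7 was far below the caIKK2EC libraries of lane 8. Tnfrsf12a (Fn14, the receptor of Tnfsf12; chromosome 17, 23675445 to 23677468, minus strand) was at 84.0, 177, 138, 140 and 124 CPM in caIKK2EC 1 to 5, against 157, 197 and 174 CPM in Control 1 to 3. All caIKK2EC libraries except caIKK2EC 2 were below every Control. Its log2 fold change of -0.41 (edgeR adjusted p = 0.336, SE 0.20) was the lowest of the receptors, and the difference of caIKK2EC 1 from the Controls within lane 7 was -1.06.

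Tnfrsf11b (osteoprotegerin, the secreted decoy of Tnfsf11 and Tnfsf10; chromosome 15, 54250619 to 54278484, minus strand) was at 52.6, 112, 119, 113 and 97.7 CPM in caIKK2EC 1 to 5, against 82.3, 52.0 and 67.5 CPM in Control 1 to 3. All 4 caIKK2EC libraries of lane 8 were above every Control, and the caIKK2EC library of lane 7 was near the lowest Control. The log2 fold change was 0.55 (SE 0.26, edgeR adjusted p = 0.306), as without Control 3 (0.56). It turned to -0.33 within lane 7 and to -0.36 with lane as a term. Both lane values rest on caIKK2EC 1 alone against the Controls. With every Control in lane 7, lane and genotype cannot be told apart for this gene or any other. DESeq2 called it without caIKK2EC 1 (log2 fold change 0.71, adjusted p = 0.0042). The log2 ratio of Tnfsf11 to Tnfrsf11b CPM, with 0.5 added to both, was -5.74 ± 0.89 (SD, n = 5) in caIKK2EC and -6.07 ± 0.33 (SD, n = 3) in Control aortas. The difference of 0.33 had an exact two-sided permutation p of 0.643 over 56 splits, where 0.0357 is the smallest possible, and it turned to -0.01 without caIKK2EC 1 and to -0.10 with 2 added in place of 0.5.

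The other receptors overlapped between the groups. Eda2r (the receptor of an ectodysplasin isoform) was at 5.52 to 10.4 CPM in caIKK2EC and 4.36 to 6.59 CPM in Control libraries. Its log2 fold change was 0.63 (edgeR adjusted p = 0.288, unadjusted p = 0.048, SE 0.28). It was 0.52 without Control 3, 0.11 within lane 7 and 0.096 with lane as a term. Tnfrsf14 (HVEM, a receptor of Tnfsf14) was at 3.24 to 5.34 CPM in caIKK2EC and 2.89 to 4.25 CPM in Control libraries (log2 fold change 0.37). Tnfrsf11a (RANK, the signalling receptor of Tnfsf11) was at 33.6 to 57.2 CPM in caIKK2EC and 30.4 to 47.7 CPM in Control libraries (0.21). Tnfrsf19 (TROY) was at 0.74 to 2.91 CPM in caIKK2EC and 0.89 to 1.56 CPM in Control libraries (0.38).

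Tnfrsf23, a mouse decoy receptor for TRAIL (chromosome 7, 143665809 to 143685872, minus strand), varied widely between the animals of both groups. It had 11, 225, 273, 21 and 330 counts in caIKK2EC 1 to 5, against 199, 6 and 3 counts in Control 1 to 3, that is 0.43, 9.48, 11.7, 0.75 and 10.7 CPM in caIKK2EC libraries and 7.37, 0.22 and 0.14 CPM in Control libraries. Both groups held libraries near 0 and libraries of several CPM. A log2 fold change of 1.34 carried an SE of 1.36 (edgeR adjusted p = 0.661), and DESeq2 called the gene without Control 1 (log2 fold change 5.19, adjusted p = 0.0071). Without Control 3 the edgeR value was 0.80. The neighbouring gene Tnfrsf26 (143607659 to 143628722, minus strand), no member of the list, was high and low in the same libraries, at 0.078, 9.19, 15.8, 0.18 and 8.41 CPM in caIKK2EC 1 to 5 and at 9.74, 0.15 and 0.14 CPM in Control 1 to 3. Tnfrsf22 (143634806 to 143649661, minus strand), which lies between them, showed no such spread, with 2.02 to 3.56 CPM in caIKK2EC and 1.41 to 2.06 CPM in Control libraries. The flanking genes Cars and Osbpl5 did not show it either, with 944 to 1218 and 1339 to 2047 counts in caIKK2EC libraries and 640 to 1148 and 1804 to 2487 counts in Control libraries. The neighbours were set out after the values of Tnfrsf23 were seen. These receptor genes are similar copies, so reads of 50 nt may have been split among them, and E230032D23Rik on the opposite strand shares 164 exon bases with Tnfrsf23. The origin of the shared high and low values was not tested.

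**Figure D4:**
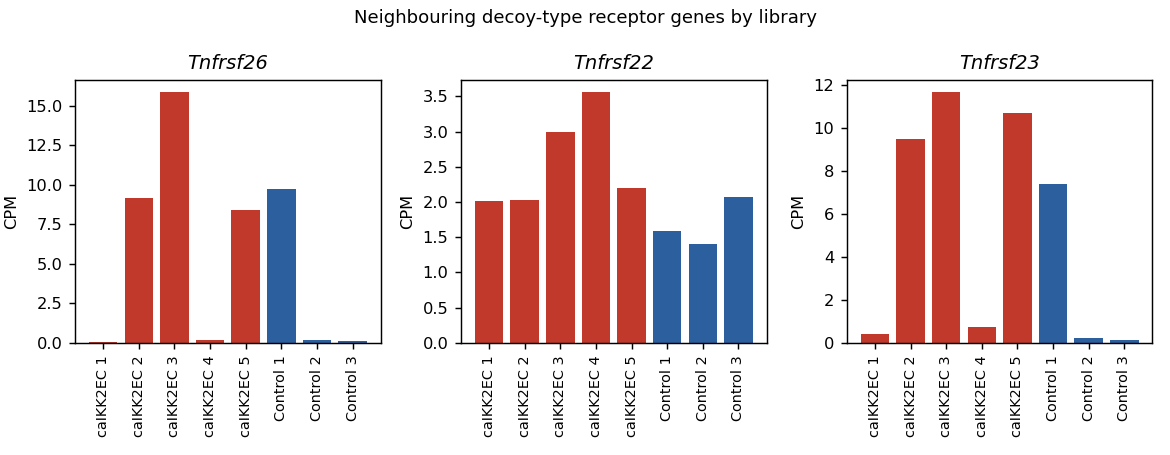
CPM of Tnfrsf26, Tnfrsf22 and Tnfrsf23, neighbours on chromosome 7, in each library, caIKK2EC (red) left of Control (blue). Tnfrsf26 and Tnfrsf23 are high in caIKK2EC 2, 3 and 5 and in Control 1 and near 0 in the other libraries, while Tnfrsf22 stays between 1.41 and 3.56 CPM in all 8.

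**Figure D5:**
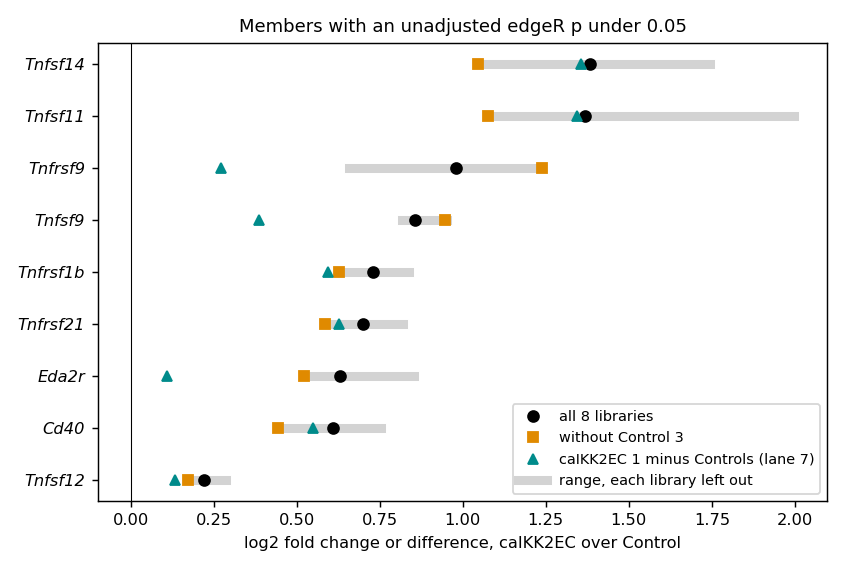
The log2 fold change of caIKK2EC over Control for the 9 members with an unadjusted edgeR p under 0.05 (black), without Control 3 (orange squares), as the difference of caIKK2EC 1 from the Controls within lane 7 (green triangles), and as the range with each library left out (grey). All values are above 0, and the lane 7 values of Tnfrsf9, Tnfsf9 and Eda2r, at 0.27, 0.39 and 0.11, are the farthest below the values over all 8 libraries.

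Summed markers of macrophages, dendritic cells, T cells and B cells were also higher in every caIKK2EC than in any Control library, and none of these markers was at 0 in all libraries. In these bulk samples, more cells of a type and more RNA per cell cannot be told apart. Over all tested genes, 7.01% were higher and 3.22% lower without overlap, so 1 such marker in a short list says little. All 10 macrophage markers were higher without overlap (median log2 fold change 0.90, and 0.68 without Control 3), with summed levels of 8011 to 11426 CPM in caIKK2EC and 1953 to 6680 CPM in Control aortas. The 8 dendritic cell markers summed to 347 to 473 CPM in caIKK2EC and 217 to 298 CPM in Control aortas, with a median of 0.84 (0.64 without Control 3) and 4 of 8 higher without overlap. The 10 T cell markers summed to 179.4 to 299 CPM in caIKK2EC and 87.2 to 178.9 CPM in Control aortas, so that caIKK2EC 2 and Control 2 were nearly equal. Their median was 0.55 (0.36 without Control 3), with 2 negative values and 1 marker without overlap. The 8 B and plasma cell markers went both ways, 5 positive and 3 negative, and 1 was higher without overlap. Their median of 0.15 turned to -0.14 without Control 3, and they summed to 68.7 to 97.6 CPM in caIKK2EC and 27.8 to 66.4 CPM in Control aortas. DESeq2 called 9 macrophage, 3 dendritic cell, 2 T cell and 1 B cell markers higher (4.55% of all genes), and 8, 3, 0 and 0 without Control 3 (2.49% of all genes). It also called 1 endothelial marker (Vwf) and 1 fibroblast marker (Lum) higher. Of the smooth muscle markers it called 1 (Myh11) lower (1.51% of all genes). Vwf, Lum and Myh11 were not called without Control 3. Natural killer cell markers were near 0, at 4.59 to 9.08 CPM in caIKK2EC and 2.84 to 6.82 CPM in Control aortas for 8 markers. The sums of the 10 endothelial markers overlapped, at 2732 to 3422 CPM in caIKK2EC and 1668 to 3309 CPM in Control aortas (median log2 fold change 0.08). Of these markers, 1 was higher without overlap. Their lowest sum was that of Control 3, and without it the median turned to -0.09, with 1 marker higher and 2 lower at an unadjusted edgeR p under 0.05. Also overlapping were the sums of the 6 fibroblast markers, at 8105 to 10094 CPM in caIKK2EC and 5979 to 8201 CPM in Control aortas. Their median was 0.27 (0.19 without Control 3), and 1 fibroblast marker was higher without overlap. The 8 smooth muscle markers, at 10062 to 20857 CPM in caIKK2EC and 18335 to 36541 CPM in Control aortas, had a median of -0.66 (-0.45 without Control 3). At an unadjusted edgeR p under 0.05, 6 of them were lower (7.47% of all genes), and 0 without Control 3 (3.72%). The markers of fat had a median of -0.45 (-0.41 without Control 3), with the highest sum, 5142 CPM, in caIKK2EC 1. The part of these cell types in the values of the TNF superfamily members was not tested.

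Downstream of the receptors, 29 genes of the receptor complexes were all tested. DESeq2 called 3 higher and 0 lower (4.55% and 1.51% of all genes), and edgeR called 0. At an unadjusted edgeR p under 0.05, 8 were higher and 1 lower (9.66% and 7.47% of all genes). Without Control 3 these were 7 higher and 3 lower (7.67% and 3.72%). The median log2 fold change of the 29 genes was 0.17. Birc3, a ubiquitin ligase recruited by TRAF2 and itself an NF-κB target, was at 40.4, 35.0, 47.1, 40.1 and 42.2 CPM in caIKK2EC 1 to 5, against 20.4, 24.7 and 18.3 CPM in Control 1 to 3. The groups were well apart, with a log2 fold change of 0.95 (edgeR adjusted p = 0.107, SE 0.14), 0.86 without Control 3 and 0.93 within lane 7. Tnfaip3 (A20, a feedback inhibitor of TNF receptor signalling) and Traf1 (an adaptor of TNFR2) had log2 fold changes of 0.96 (SE 0.18) and 0.93 (SE 0.24), again with no overlap between the groups. DESeq2 called all 3 without Control 3 too (2.49% of all genes higher), and lost Traf1 without caIKK2EC 4 (adjusted p = 0.0555).

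Among 8 genes of ligand and receptor shedding, DESeq2 called Rhbdf2 and Adam17 higher (4.55% of all genes) and none lower (1.51%), and edgeR called 0. By unadjusted edgeR p under 0.05, 4 were higher and 0 lower (9.66% and 7.47% of all genes). Without Control 3 these were 3 higher and 1 lower (7.67% and 3.72%). Adam17, the protease that releases TNF and its receptors, averaged 115 ± 16.8 CPM (SD, n = 5) in caIKK2EC and 76.1 ± 11.3 CPM (SD, n = 3) in Control aortas, and Rhbdf2, which escorts it to the cell surface, 69.0 ± 5.88 CPM (SD, n = 5) in caIKK2EC and 47.0 ± 5.08 CPM (SD, n = 3) in Control aortas. The log2 fold changes were 0.60 for Adam17 and 0.55 for Rhbdf2, and 0.49 and 0.47 without Control 3. DESeq2 kept Rhbdf2 without Control 3 and lost Adam17 (adjusted p = 0.0949), as it did without caIKK2EC 3, 4 or 5 (adjusted p 0.0685 to 0.0729) and without caIKK2EC 1 and Control 1 together (0.0503). Of 9 superfamily genes outside the member list, 7 were tested, and neither tool called any. At an unadjusted edgeR p under 0.05, 1 was higher and 0 lower (9.66% and 7.47% of all genes). Without Control 3 there were 0 in either direction (7.67% and 3.72%). Relt, a receptor of little-known function, had the smallest p (log2 fold change 0.86, edgeR adjusted p = 0.204), and Ltb, the lymphotoxin beta chain, followed with 0.81 (edgeR adjusted p = 0.330). Ltbr, the receptor that Ltb and Tnfsf14 share, averaged 108 ± 8.87 CPM (SD, n = 5) in caIKK2EC and 105 ± 6.42 CPM (SD, n = 3) in Control aortas.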

How the data were processed

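Poly(A) RNA of whole aortas, 1 mouse per library, was sequenced from directional libraries as single reads of 50 nt, per the labels. The deposited table holds raw counts per gene symbol, and 27 names had been turned into dates. FastQC 0.11.5, STAR 2.7.0e, DESeq2 1.22.2 and GRCm38 (mm10) are named in the submitters' processing notes. The sources used here do not name the counter, its annotation or its use of strand. The authors' deposited comparison table gives log2 fold changes, a test score, p-values and normalized signal values per library. Its adjusted p for Tnfrsf1b, 0.0015, equals that of the DESeq2 run described here.

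The counts were tested with edgeR 4.0.16 (TMM scaling, default filter by group, robust quasi-likelihood fit, R 4.3.3), with Benjamini-Hochberg adjustment over 14679 genes at 0.05, and as an alternative with DESeq2 1.42.0 (genes with a total count of 10 or more). Shares of all genes called by DESeq2 are of the genes to which it gave an adjusted p. CPM use TMM factors. Lane 7 differences are of log2(CPM + 0.5). "No overlap" means that every caIKK2EC value lay on the same side of every Control value. On simulated data with 200 changed genes, edgeR recovered 60% of 2-fold changes and made 157 calls, 10 of them false, and DESeq2 recovered 79% and made 217 calls, 46 of them false. The members, lists and tests were chosen with earlier results of these data known. Per-library values are given for members called by either tool or without overlap and for the 3 ligands and 5 receptors with the highest level per length. Up to 3 genes with the smallest p are named from each pathway list. Tnf, Tnfrsf9 and Tnfrsf23 were added after their values were seen.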

Additional observations from a re-analysis of the deposited data

Results flagged for a closer look

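Tnfsf13 was at 1.88 CPM in caIKK2EC 3, below the other 4 caIKK2EC libraries, which lay between 2.19 and 2.25 CPM, and its distance from them was large beside the range of the group. It was the only such value in 29 checks of the caIKK2EC group, and chance gives about 1 in 20.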

How the results depend on the processing

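edgeR called 0 genes of the whole table, and 0 with the other scaling, both filters, the lane or sex term and the replicate block. It called 661 with age as a term and 359 without caIKK2EC 2 (range 0 to 359 with each library left out), and DESeq2 called 869. Members called higher numbered 0, with 2 under the age term, 4 with DESeq2 and 0 to 2 with a library left out, and 0 were lower. Members without overlap numbered 6 higher (6 to 12 with a library left out, 14 without caIKK2EC 1 and Control 1 together, an alternative chosen after seeing the data, as were the DESeq2 runs with a library left out) and 0 to 1 lower. The difference in the log2 ratio of Tnfsf11 to Tnfrsf11b was -0.10 with 2 added and -0.012 without caIKK2EC 1, the lowest of a range up to 0.57 with a library left out (without caIKK2EC 2). Over 448 member values, 417 kept side and sign, 8 passed the threshold anew and 23 changed sign, in 9 members, and the causes were not tested. With lane as a term these were Tnf (-0.038), Tnfrsf10b (-0.049), Tnfrsf25 (0.10), Tnfrsf11b (-0.36), Tnfrsf23 (-2.59), Tnfrsf11a (-0.18) and Tnfrsf19 (-0.68). With age they were Fas (0.037), Tnfrsf25 (0.028) and Tnfrsf19 (-0.0037), with sex Tnf (-0.10), and with the replicate block Fas (0.049), Ngfr (-0.35) and Tnfrsf19 (-0.23). With a library left out, Tnf reached -0.10 to 1.08, Fas -0.22 to 0.17 and Tnfrsf25 -0.20 to 0.15. Animals of the same number correlated at 0.33, 0.099 and 0.097 in their deviations, and those of different numbers at -0.28 to 0.045. Whether the numbers pair the animals is not settled by these values, and only the replicate block treats them as paired. Low counts limit Tnfsf11, Tnfsf14 and Tnfrsf18, with means of 22.2 to 33.2 counts. Each library is 1 animal, and 3 Controls limit every test.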
